A study of Mus musculus with 18 samples.

Results

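*Kctd16*, *Rnf152*, *Frem2*, *Tenm4*, *Ccn4* and *Gpr35* are 6 of the 78239 genes in the count tables, and they were picked because *nsHif1a* raised them in 661W cells and not in the retina. The choice rested on the *nsHif1a* against eGFP values in the cells, in the retina and on the difference between them, so those values are given here as a description and carry no test. The baseline of each gene in control retina against control cells is another contrast, but it shares the eGFP libraries with the choice, and it too is given with no test. After the filter on low counts, 4 of the 6 were tested in the cells (*Rnf152*, *Tenm4*, *Ccn4* and *Gpr35*) and all 6 in the retina. *Kctd16* and *Frem2* did not pass the filter in the cells, where every control library had 0 counts for both.

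The study asked what a permanently active hypoxia response does in photoreceptors. *nsHif1a* encodes a Myc-tagged mouse HIF1A that is stable in normal oxygen because the residues read by the oxygen sensors were exchanged. In vitro, 661W cells, a photoreceptor-like line derived from a mouse retinoblastoma, were transfected with a plasmid for *nsHif1a* or eGFP under the ubiquitous CMV promoter and sequenced after 20 h (4 libraries per group). In vivo, an AAV with the rod-specific mOP promoter carried *nsHif1a* or eGFP, was injected under the retina of mice at about 1 month of age, and whole retinas were sequenced at 3 weeks post injection (wpi) (5 libraries per group). The labels give the mice as C57BL/6J, whereas the methods name wild-type 129S6. All cell libraries thus came from plasmid transfections and all retinas received a vector. The share of cells that took up the plasmid is not stated. The vector reached only an area of the retina, and a whole retina holds many cells that the mOP promoter does not drive. Whether the cell libraries came from separate cultures is not stated, so the spread between them may be technical.

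HIF1A pairs with ARNT and binds short DNA motifs with the core ACGTG or GCGTG near target genes, most of which serve glycolysis, oxygen delivery and survival. Oxygen-dependent hydroxylases normally lead HIF1A to degradation, and rods use much of the oxygen that reaches the outer retina. None of the 6 genes is in the list of 39 established HIF targets used here. *Gpr35* encodes a G protein-coupled receptor for which kynurenic acid and lysophosphatidic acid have been proposed as ligands. *Rnf152* encodes a lysosomal RING ubiquitin ligase that acts on the RagA GTPase and restrains mTORC1. *Tenm4* encodes a teneurin, a large transmembrane protein of cell adhesion and neuronal wiring. *Frem2* encodes an extracellular matrix protein that forms the Fraser complex with FRAS1 and FREM1. *Kctd16* encodes an auxiliary subunit of the GABA-B receptor. *Ccn4*, also known as *Wisp1*, encodes a secreted matricellular protein first described as a WNT1-induced gene.

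On GRCm39, *Gpr35* (ENSMUSG00000026271.16) spans chr1:92878587-92914113 on the plus strand and *Rnf152* (ENSMUSG00000047496.7) chr1:105204639-105284775 on the minus strand. *Frem2* (ENSMUSG00000037016.12) spans chr3:53421359-53564812 on the minus strand. *Tenm4* (ENSMUSG00000048078.17) spans chr7:95820453-96560300 and *Ccn4* (ENSMUSG00000005124.11) chr15:66763060-66795050, both on the plus strand. *Kctd16* (ENSMUSG00000051401.8) was taken by its identifier, because a second entry carries the same symbol. All 6 are annotated as protein-coding.

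Promoters from RefSeq (GRCm38.p6, 250 bases before to 50 after a start site) were matched for 4 of the 6 genes, with 6 windows. No window was matched for *Ccn4* and *Kctd16*, which does not show that RefSeq has no entry for them. Windows are shown because the letters of the HIF1 core motif can be read in them. Capitals mark ACGTG or GCGTG, searched on both strands, so that CACGT and CACGC are the same letters read from the opposite strand. The 4 windows below give the 5′ to 3′ sequence on the strand of the gene, for *Rnf152* chr1:105356661-105356960 (minus), for the downstream start of *Gpr35* chr1:92978653-92978952 (plus), for *Frem2* chr3:53657306-53657605 (minus) and for the downstream start of *Tenm4* chr7:96211421-96211720 (plus).
Rnf152: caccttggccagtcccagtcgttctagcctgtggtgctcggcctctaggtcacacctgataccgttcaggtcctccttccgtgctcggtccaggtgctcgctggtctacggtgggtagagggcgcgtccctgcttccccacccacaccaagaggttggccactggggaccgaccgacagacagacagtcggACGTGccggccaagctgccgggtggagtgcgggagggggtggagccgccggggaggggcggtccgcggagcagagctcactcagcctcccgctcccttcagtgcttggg
Gpr35: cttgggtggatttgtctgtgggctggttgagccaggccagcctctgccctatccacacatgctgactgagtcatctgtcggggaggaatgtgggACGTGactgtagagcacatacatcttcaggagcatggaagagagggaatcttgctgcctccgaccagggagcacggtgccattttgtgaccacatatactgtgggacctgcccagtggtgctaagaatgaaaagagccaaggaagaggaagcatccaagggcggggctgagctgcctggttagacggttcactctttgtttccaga
Frem2: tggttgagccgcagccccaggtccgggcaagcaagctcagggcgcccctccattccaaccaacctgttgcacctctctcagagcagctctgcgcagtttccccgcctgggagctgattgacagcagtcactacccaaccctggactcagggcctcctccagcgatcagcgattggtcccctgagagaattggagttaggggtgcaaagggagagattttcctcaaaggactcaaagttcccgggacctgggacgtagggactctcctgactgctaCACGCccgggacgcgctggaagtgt
Tenm4: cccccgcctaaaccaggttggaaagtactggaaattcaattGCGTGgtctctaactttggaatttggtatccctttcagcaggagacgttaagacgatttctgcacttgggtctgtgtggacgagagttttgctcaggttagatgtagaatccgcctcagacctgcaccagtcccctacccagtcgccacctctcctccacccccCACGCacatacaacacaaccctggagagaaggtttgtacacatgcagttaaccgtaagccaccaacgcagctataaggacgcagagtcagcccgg
*Rnf152* held ACGTG at -59 from the start site and *Gpr35* held it at -156. *Frem2* held 1 GCGTG on the opposite strand at 25 after the start, and the *Tenm4* window held GCGTG at -209 and, on the opposite strand, at -45. The upstream *Tenm4* window also held GCGTG 2 times and the upstream *Gpr35* window held neither motif. Of 32851 promoter windows of the same length in the table, 19.6% held ACGTG, 32.4% held GCGTG and 43.8% held either. The matches are letters in a window and are not measured binding sites.

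The depth was 13424326 to 17809585 counts per library in the cells and 12898220 to 16167522 in the retina. At this depth 3 counts correspond to 0.168 to 0.223 CPM (a gene's counts scaled to a fixed library total) in the cells and 0.186 to 0.233 CPM in the retina. This limit covers counting error only and was computed from raw library totals. The CPM values given for genes are also scaled by TMM over all 18 libraries, so the limit is approximate beside them. Total *Hif1a*, native and transgenic, was at 150 ± 5.62 CPM (SD, n = 4) in eGFP cells and 1500 ± 377 CPM (SD, n = 4) in *nsHif1a* cells. In the whole retina it was at 689 ± 27.3 CPM with AAV::eGFP and 713 ± 32.2 CPM with AAV::*nsHif1a* (SD, n = 5), and these groups overlapped. The photoreceptor identity of the line was weak in RNA, since 10 rod genes summed to 13 to 17.7 CPM in the cells against 39960 to 56360 CPM in the retina, and 8 cone genes to 1.76 to 4.99 CPM against 852 to 1090 CPM. The green cone opsin gene *Opn1mw* was at 0 in all eGFP cell libraries. Libraries 1 and 2 of *nsHif1a* cells stood apart from the other 6. A sum of 7 mural and fibroblast genes was 1033 CPM in each against 439 to 515 CPM. This sum was mostly *Col3a1* (334 to 839 CPM in *nsHif1a* cells), and *Dcn* of this list was at 0 in all 8. *Col1a1* reached 96.6 CPM in *nsHif1a* cells against at most 41.0 CPM in eGFP cells, and *Col1a2* 12.5 against at most 5.39 CPM. *Pdgfrb* differed less (70.9 to 90.7 against 73.9 to 78.1 CPM), and *Rgs5* and *Lum* were near 0 in the cells. A sum of 5 Müller genes was 38.6 and 40.8 CPM against 84.7 to 89.6 CPM, mostly *Glul* (36.8 to 88.9 CPM in *nsHif1a* cells). Each sum was thus made up mostly of 1 gene and is not read as a cell type. For *Gpr35*, *Rnf152*, *Tenm4* and *Ccn4*, log2FC values in the cells with and without libraries 1 and 2 are given beside the results. Other results use all libraries unless stated.

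In 661W cells, *Gpr35*, *Rnf152* and *Tenm4* were several-fold higher with *nsHif1a*, *Frem2* and *Kctd16* went from 0 counts in every control library to a few counts in every *nsHif1a* library, and *Ccn4* was higher by a small margin. The call thresholds were an adjusted *p*-value under 0.05 and an absolute log2 fold change (log2FC) above 0.5. Of the 4 tested, 3 were called higher (*Gpr35*, *Rnf152* and *Tenm4*), beside 193 of 15962 genes tested, or 1.21%, a share from which nothing is read because the genes were chosen on this contrast. *Ccn4* lay outside the fold threshold, and *Tenm4* had the smallest log2FC of the 3 called. The label of a gene raised in cells therefore rests on a called change for 3 genes, on counts alone for *Kctd16* and *Frem2*, and on a change under the thresholds for *Ccn4*.

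*Gpr35* had 1, 6, 5 and 3 counts in the eGFP libraries and 44, 46, 111 and 100 counts in the *nsHif1a* libraries. The lowest *nsHif1a* library was far above the highest control, and libraries 3 and 4 had the most. Its mean was 0.231 ± 0.133 CPM with eGFP and 4.36 ± 1.92 CPM with *nsHif1a* (SD, n = 4), a ratio of means of 18.9 and a log2FC of 4.11 (SE 0.57). This was the 7th largest log2FC among the genes tested in the cells. With *nsHif1a* libraries 3 and 4 alone against all eGFP libraries the log2FC was 4.73, and with replicates 1 and 2 of both groups alone it was 3.88.

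*Rnf152* had 11, 5, 15 and 11 counts with eGFP and 62, 56, 92 and 106 counts with *nsHif1a*. Again no library of one group reached the other, and libraries 3 and 4 were the higher *nsHif1a* pair. The ubiquitin ligase gene rose from 0.643 ± 0.239 CPM to 4.58 ± 1.27 CPM (SD, n = 4), a ratio of 7.13 and a log2FC of 2.79 (SE 0.34, rank 14). Its log2FC was 3.15 with libraries 3 and 4 against all eGFP libraries and 2.89 in replicates 1 and 2 alone.

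*Tenm4* had 55, 55, 72 and 73 counts in the eGFP libraries and 191, 139, 395 and 328 counts in the *nsHif1a* libraries. The groups did not overlap, and the spread within *nsHif1a* cells was wide, with libraries 3 and 4 well above libraries 1 and 2. The teneurin gene had a mean of 3.96 ± 0.880 CPM with eGFP and 15.2 ± 6.37 CPM with *nsHif1a* (SD, n = 4), a ratio of 3.83 and a log2FC of 1.83 (SE 0.32, rank 45). The log2FC was 1.58 in replicates 1 and 2 alone and 2.39 with libraries 3 and 4 against all eGFP libraries. Without eGFP replicate 1 or 2 the log2FC was 1.68 or 1.71 and the gene was no longer called.

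*Frem2* had 0 counts in all 4 eGFP libraries and 10, 9, 34 and 20 counts with *nsHif1a*. Its mean with *nsHif1a* was 1.05 ± 0.638 CPM (SD, n = 4), at least 22.8-fold higher than the level that 3 counts over the 4 eGFP libraries would give (0.046 CPM). *Kctd16* also had 0 counts in all 4 eGFP libraries, and had 5, 6, 7 and 10 counts with *nsHif1a*. Its mean of 0.409 ± 0.124 CPM (SD, n = 4) was at least 8.90-fold above the same limit. Both genes were thus detected in every *nsHif1a* library and in no control library, *Kctd16* with the fewest counts of the 6.

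*Ccn4* was the only one of the 6 with a high level in control cells, at 2197, 1966, 2338 and 1858 counts. The *nsHif1a* libraries held 2886, 2452, 2463 and 2574 counts. After scaling, the eGFP libraries lay between 122 and 132 CPM and the *nsHif1a* libraries between 139 and 163 CPM, so that the groups did not overlap, as was the case for 7.51% of all genes tested in the higher direction. The mean was 128 ± 4.72 CPM with eGFP and 151 ± 10.5 CPM with *nsHif1a* (SD, n = 4), a ratio of 1.18 and a log2FC of 0.24 (SE 0.06, rank 2389). Here libraries 1 and 2 were the higher *nsHif1a* pair, and the log2FC was 0.36 in replicates 1 and 2 alone, 0.10 in replicates 3 and 4 alone and 0.15 with libraries 3 and 4 against all eGFP libraries.

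**Figure D1:**
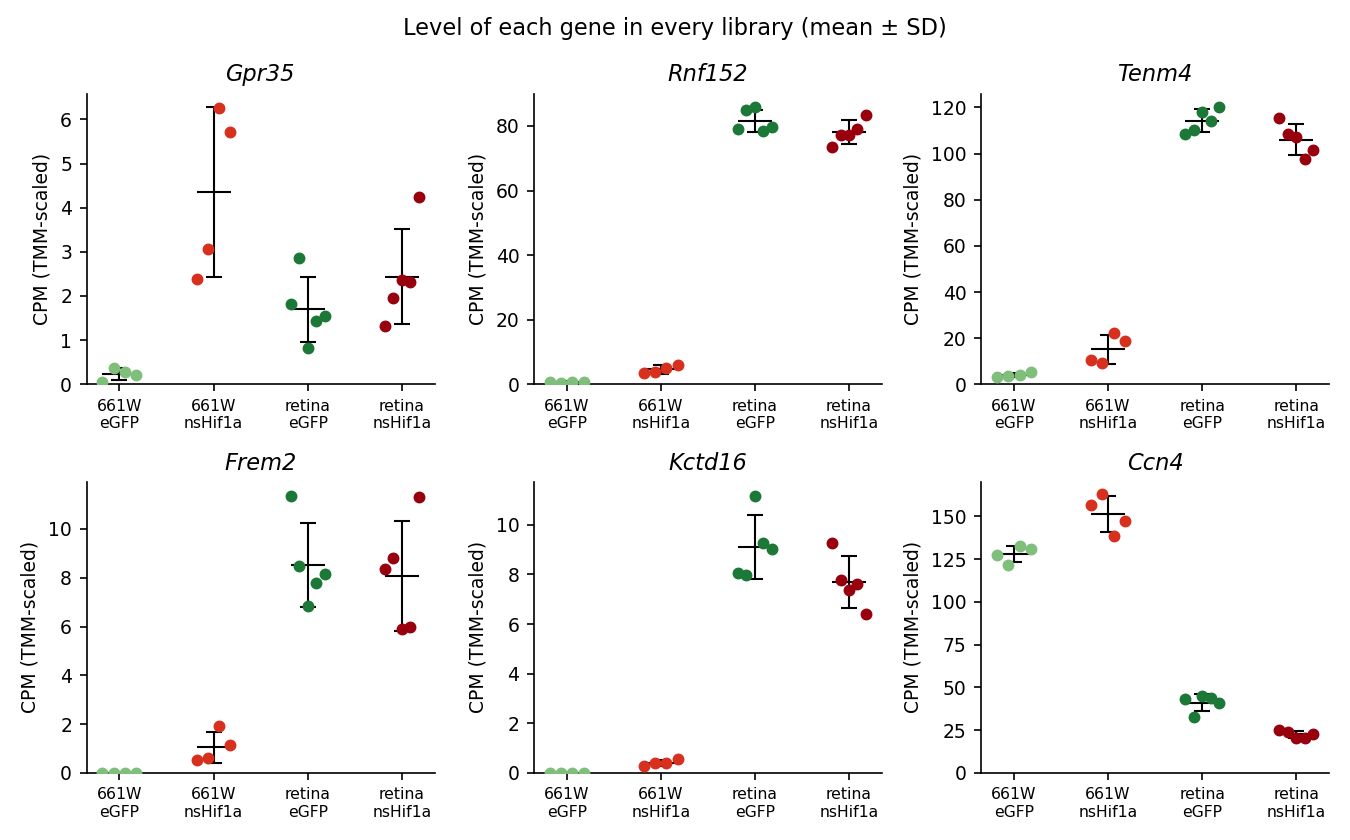
Level of each gene in every library, in CPM on a linear axis that starts at 0, for eGFP and *nsHif1a* 661W cells (4 libraries each) and AAV::eGFP and AAV::*nsHif1a* retinas (5 each), with points for libraries and bars for mean ± SD. *Frem2* and *Kctd16* sit at 0 in all eGFP cells, and *Gpr35* in *nsHif1a* cells averages 4.36 CPM against 1.70 CPM in control retina. *Ccn4* is the only gene with a higher mean in the cells than in the retina under both treatments.

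The *nsHif1a* cell libraries fell into pairs, and 5 of the 6 genes had a higher mean in the pair with more *Hif1a*. The share of all genes with this order was not counted, so nothing is read from this number. *Hif1a* averaged 1176 CPM in libraries 1 and 2 and 1824 CPM in libraries 3 and 4, a ratio of 1.55. The ratio of libraries 3 and 4 to 1 and 2 was 2.69 for *Frem2*, 2.20 for *Gpr35*, 2.10 for *Tenm4*, 1.59 for *Rnf152* and 1.44 for *Kctd16*, whose counts were the fewest. For *Kctd16* the pairs overlapped, with 0.399 CPM in library 2 and 0.395 CPM in library 3. *Ccn4* had a ratio of 0.896. The mural and fibroblast sum, the Müller sum and a sum of 5 microglia genes moved with the same pairs. The microglia sum was at 43.1 and 40.8 CPM in libraries 1 and 2 and 14.2 to 19.96 CPM in the other 6. It was mostly *Tmem119* (13.6 to 41.9 CPM in *nsHif1a* cells). No other gene of that list exceeded 1.084 CPM in the cells, and *C1qa* was at 0 in all 8. The part of these differences in the values of the 6 genes was not tested.

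**Figure D2:**
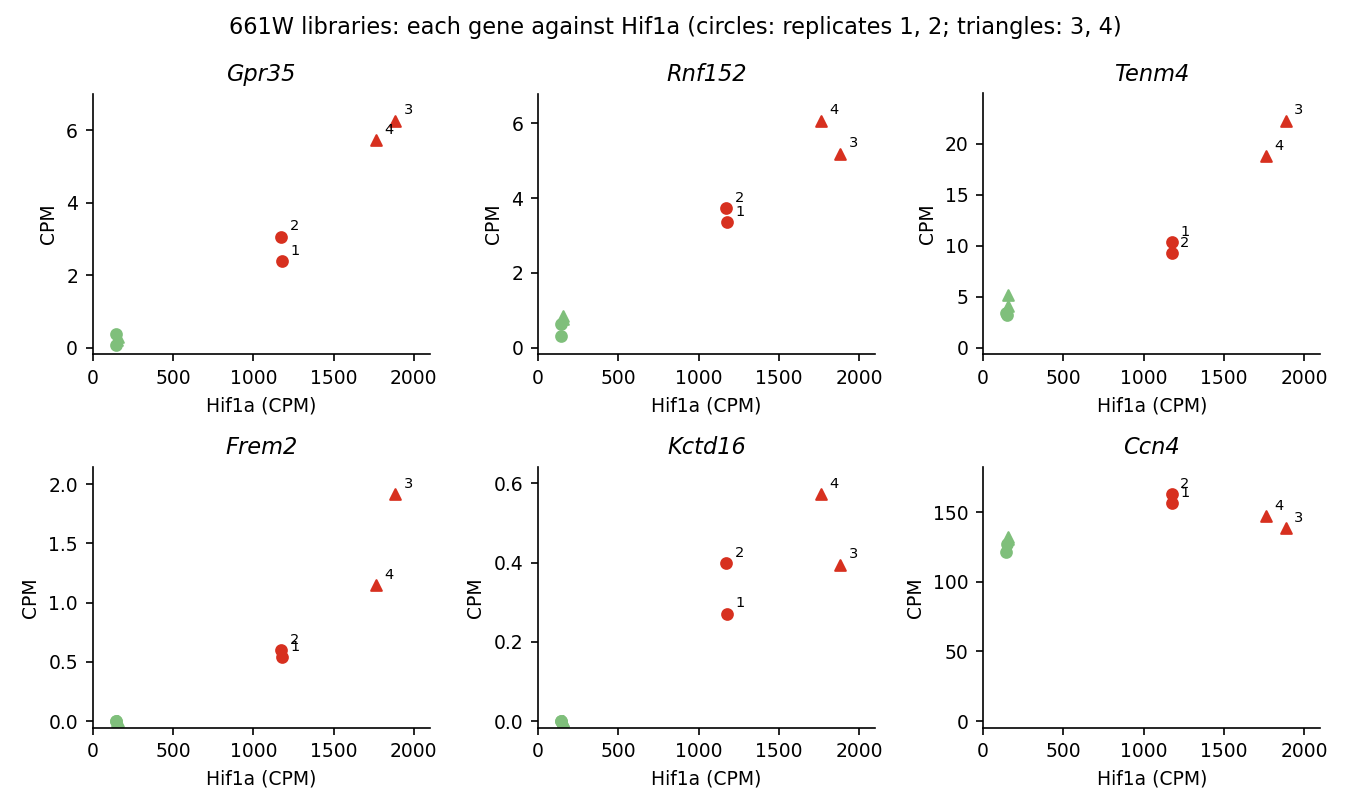
CPM of each gene against CPM of *Hif1a* in the 8 cell libraries, with eGFP in green and *nsHif1a* in red, circles for replicates 1 and 2, triangles for 3 and 4, and numbers beside the *nsHif1a* libraries. Libraries 3 and 4 had more *Hif1a* (mean 1824 against 1176 CPM) and lay above libraries 1 and 2 for *Frem2*, *Gpr35*, *Tenm4* and *Rnf152* and below them for *Ccn4*, while libraries 2 and 3 were close to each other for *Kctd16*.

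In the retina, none of the 6 genes was called higher with AAV::*nsHif1a*, where 203 of 18859 genes tested were (1.08%), and *Ccn4* was called lower, as were 172 genes (0.912%). Because the choice asked for genes not raised in the retina, nothing is read from the absence of calls. In whole tissue, fewer cells of a type and less RNA per cell cannot be told apart. The sum of 10 rod genes was 50840 to 56360 CPM with AAV::eGFP and 39960 to 53660 CPM with AAV::*nsHif1a*, and its part in the values below was not tested.

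*Ccn4* had 549, 495, 702, 639 and 527 counts with AAV::eGFP and 323, 362, 274, 291 and 340 counts with AAV::*nsHif1a*. All 5 *nsHif1a* retinas were below all 5 controls, a separation found in the lower direction for 2.69% of the genes tested. The level went from 41.1 ± 4.81 CPM to 22.4 ± 2.11 CPM (SD, n = 5), a log2FC of -0.89 (SE 0.09). The X inactivation transcript *Xist* was high in all *nsHif1a* libraries and in eGFP libraries 1 and 2 and low in eGFP libraries 3 to 5, and in the high-Xist libraries alone the log2FC of *Ccn4* was -0.76. With the γ-crystallin level as a covariate, lens genes that took 0.0634% to 0.280% of counts in eGFP and 0.0956% to 1.82% in *nsHif1a* retinas, it was -0.80.

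*Gpr35* was low in the retina, at 23, 43, 13, 21 and 20 counts with AAV::eGFP and 17, 30, 32, 33 and 64 counts with AAV::*nsHif1a*. The groups overlapped, with 1.70 ± 0.741 and 2.44 ± 1.08 CPM (SD, n = 5) and a log2FC of 0.48 (SE 0.31), and this gene lay closest to the fold threshold on the upper side. With the *Xist* class as a covariate the log2FC was -0.08. The sum of 5 microglia genes was 38.2, 76.1, 15.5, 11.9 and 24.03 CPM in the eGFP libraries and 26.7, 52.6, 40.7, 71.0 and 75.3 CPM in the *nsHif1a* libraries. The library with the most *Gpr35* in each group was also the one with the highest microglia sum, and the part of microglia in the *Gpr35* level was not tested.

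*Rnf152* and *Tenm4* were abundant in the retina and differed little between vectors. *Rnf152* had 1000, 1278, 1344, 1150 and 1025 counts with AAV::eGFP and 943, 1181, 1047, 1120 and 1263 counts with AAV::*nsHif1a*, or 81.5 ± 3.51 and 78.1 ± 3.63 CPM (SD, n = 5) and a log2FC of -0.07 (SE 0.04). *Tenm4* had 1375, 1661, 1849, 1676 and 1546 counts with AAV::eGFP and 1481, 1659, 1457, 1386 and 1534 counts with AAV::*nsHif1a*, or 114 ± 4.97 and 106 ± 6.84 CPM (SD, n = 5) and a log2FC of -0.11 (SE 0.05). The libraries of both vectors overlapped for both genes.

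*Frem2* had 144, 128, 107, 114 and 105 counts with AAV::eGFP and 107, 135, 80, 85 and 171 counts with AAV::*nsHif1a*. Its mean was 8.53 ± 1.71 and 8.07 ± 2.25 CPM (SD, n = 5), with a log2FC of -0.13 (SE 0.18). *Kctd16* had 102, 120, 175, 136 and 116 counts with AAV::eGFP and 119, 119, 100, 108 and 97 counts with AAV::*nsHif1a*, with means of 9.09 ± 1.30 and 7.69 ± 1.03 CPM (SD, n = 5) and a log2FC of -0.25 (SE 0.11). Both pairs of groups overlapped.

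Set side by side, the effect in the retina minus the effect in the cells was -3.77 for *Gpr35*, -2.98 for *Rnf152*, -2.09 for *Tenm4* and -1.11 for *Ccn4* on the log2 scale. *Frem2* and *Kctd16* had fitted differences of -5.18 and -4.09, which depend on how counts of 0 are handled and set no bound. In the fit over all 18 libraries, 172 of 20999 genes (0.819%) had a called difference in this direction.

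**Figure D3:**
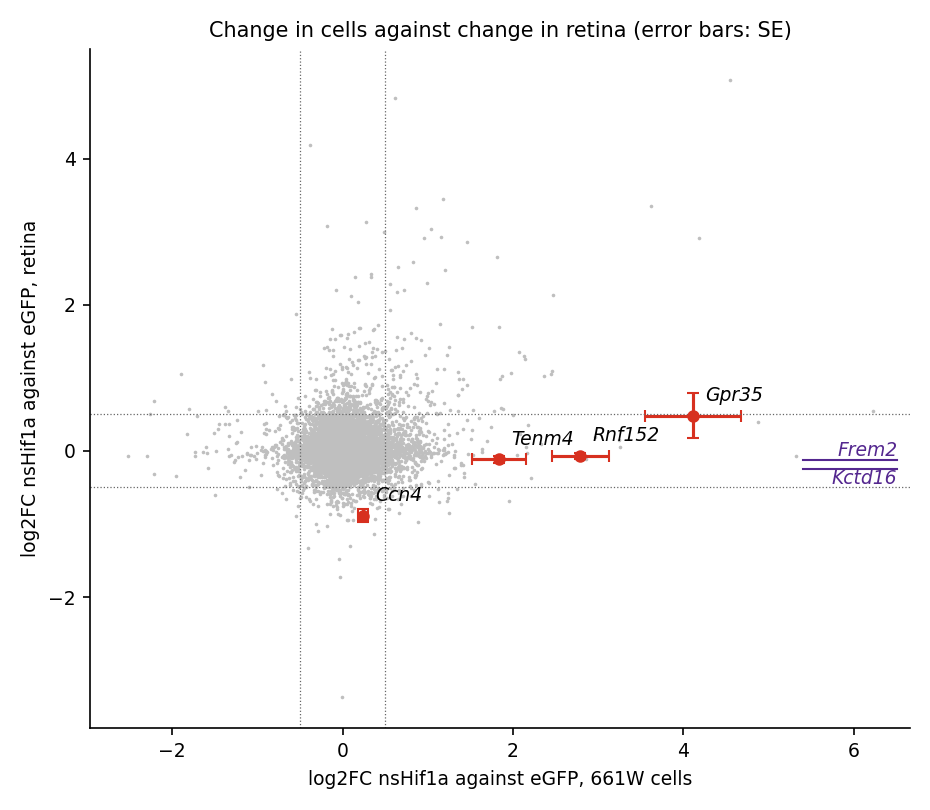
log2FC of *nsHif1a* against eGFP in 661W cells (horizontal) and in the retina (vertical), with gray points for genes tested in both, red points with SE bars for 4 of the 6 genes, and dotted lines at the fold threshold of 0.5. *Gpr35*, *Rnf152* and *Tenm4* lie far to the right and near 0 to 0.48 on the vertical axis, *Ccn4* lies at 0.24 and -0.89, and purple lines at the right edge give only the retinal values of *Frem2* (-0.13) and *Kctd16* (-0.25), which were not tested in the cells.

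The baseline shows where control tissue and control cells stood without *nsHif1a*. The counts of both tables were made in the same way and scaled together, and tissue, culture, vector and time after delivery cannot be told apart in this comparison. Of the 6 genes, 5 had more RNA in AAV::eGFP retina than in eGFP cells and *Ccn4* had less, where 46.1% of 20999 genes tested were called higher in the retina and 35.1% lower. Nothing is read from this count, since a low level in eGFP cells also favours a gene's choice as raised there. *Rnf152* was 7.02 higher in the retina on the log2 scale (SE 0.24), a ratio of means of 127. *Tenm4* was 4.89 higher (SE 0.22), a ratio of 28.9. *Gpr35* was 2.81 higher (SE 0.52), a ratio of 7.34.

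*Kctd16* and *Frem2*, with 0 counts in control cells, had at least 198-fold and at least 185-fold more RNA in control retina than the limit of 3 counts over the 4 libraries. Both passed the filter over all 18 libraries only through the retina, so the direction of their difference was fixed by the filter. *Ccn4* was the opposite case, lower in the retina (log2 difference -1.64, SE 0.07), or 3.12-fold higher in the cells. Every control retina was above every control cell library for the first 5 genes and below for *Ccn4*, a separation that 48.3% of all genes tested showed with the retina higher and 38% with the retina lower.

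**Figure D4:**
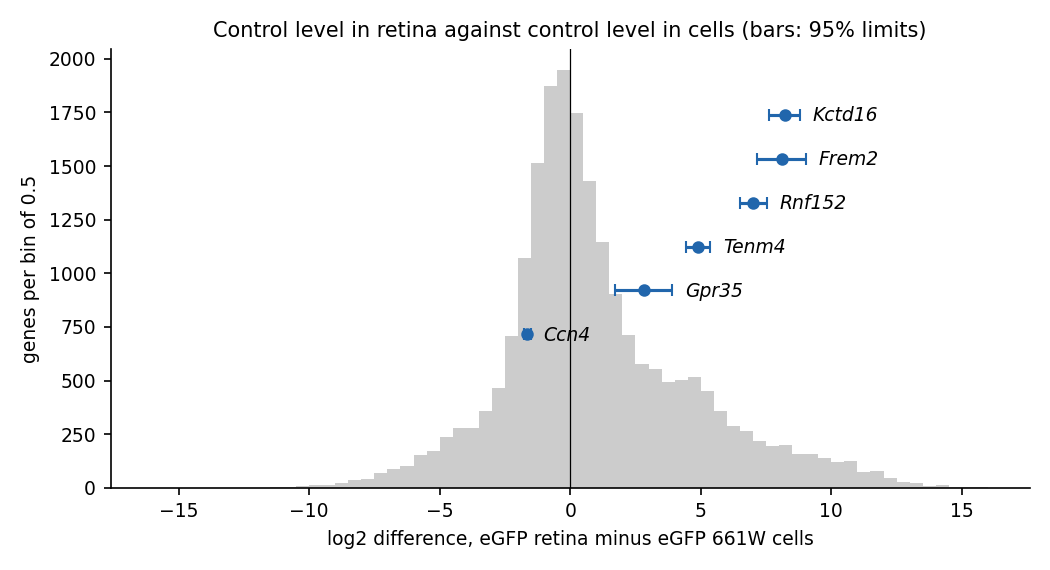
Histogram of the log2 difference between AAV::eGFP retina and eGFP 661W cells over 20999 genes (genes per bin of 0.5), with the 6 genes as blue points with 95% limits at heights chosen for legibility. Of the 6, 5 lie on the retinal side between 2.81 and 8.21 and *Ccn4* lies at -1.64, and the positions of *Kctd16* and *Frem2* depend on how counts of 0 are handled.

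The cells with *nsHif1a* did not reach the retinal level of *Kctd16*, *Rnf152*, *Frem2* and *Tenm4*. Mean CPM in *nsHif1a* cells was 4.50% of the AAV::eGFP retina for *Kctd16*, 5.62% for *Rnf152*, 12.3% for *Frem2* and 13.3% for *Tenm4*. For *Gpr35* it was 257% and for *Ccn4* 368%. From low to high, the groups were ordered as eGFP cells, *nsHif1a* cells and then the retinas for *Kctd16*, *Rnf152*, *Frem2* and *Tenm4*, where the retinal groups overlapped and the other steps did not. For *Gpr35* the order was eGFP cells, eGFP retina, *nsHif1a* retina and *nsHif1a* cells, and each step after the first had overlapping libraries. For *Ccn4* it was *nsHif1a* retina, eGFP retina, eGFP cells and *nsHif1a* cells, with no overlap at any step. The share of all genes with each of these orders was not counted, so nothing is read from them.

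Levels of different genes were compared per length, as RPKM (CPM divided by the exon length in kilobases). In eGFP cells *Ccn4* led with 23.2 RPKM, followed by *Tenm4* with 0.268, *Rnf152* with 0.0725 and *Gpr35* with 0.05 RPKM, of which the last pair overlapped. In *nsHif1a* cells the order was *Ccn4* (27.5 RPKM), *Tenm4* (1.03), *Gpr35* (0.943), *Rnf152* (0.517), *Kctd16* (0.143) and *Frem2* (0.0848), and among neighbours *Tenm4* and *Gpr35*, *Gpr35* and *Rnf152*, and *Kctd16* and *Frem2* overlapped. *Gpr35* thus passed from the lowest detected member to a level beside *Tenm4*.

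In AAV::eGFP retina the order was *Rnf152* (9.19 RPKM), *Tenm4* (7.74), *Ccn4* (7.45), *Kctd16* (3.17), *Frem2* (0.688) and *Gpr35* (0.367), in which *Tenm4* overlapped with *Ccn4* and *Frem2* with *Gpr35*. With AAV::*nsHif1a* the order was the same, and *Ccn4* at 4.06 RPKM no longer overlapped with *Tenm4* at 7.19 RPKM. *Gpr35* had the lowest mean in both retinal groups.

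The 193 genes called higher in the cells, which include *Gpr35*, *Rnf152* and *Tenm4*, were also counted by their baseline. Of these, 138 were tested in the retina and called in neither direction there, and 67 of them (48.6%) were called higher in control retina than in control cells. Of the 33 called higher in both systems, 21 (63.6%) were higher in control retina, and of the 2 called lower in the retina 1 was. None of the 20 that were not tested in the retina was higher there. Being tested in the retina requires retinal counts, a condition that the 46.1% over all genes does not carry, so these shares are not compared with it.

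The partners of each protein were listed from general knowledge. None of the 8 GABA-B genes was called in the retina, and the 1 tested in the cells (*Gabbr1*) was not called there. *Gabbr1*, the ligand-binding receptor subunit, was at 55.0 ± 2.27 CPM in eGFP cells and 58.8 ± 2.91 CPM in *nsHif1a* cells (SD, n = 4). *Gabbr2*, the subunit to which KCTD proteins bind, was at 0.216 and 0.164 CPM in the same groups and at 98.7 ± 5.78 CPM in AAV::eGFP retina (SD, n = 5). *Kctd16* was thus detected in cells with hardly any *Gabbr2* RNA.

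Of 20 tested genes of amino acid sensing to mTORC1, the pathway that RNF152 acts on, 2 were called higher in the cells and none lower. Over all genes tested, 193 of 15962 (1.21%) were called higher. The 2 were *Ddit4*, an mTORC1 inhibitor that is also in the HIF target list (log2FC 1.18), and *Sesn2*, a leucine sensor (0.74). In the retina *Ddit4* alone of 21 was called, with a log2FC of 0.66, beside 1.08% of all genes called higher. A link of these calls to *Rnf152* was not tested. *Sesn2* had a log2FC of 0.46 there (limma adjusted *p* = 0.0287), under the fold threshold, and its difference between systems was not called. *Rraga*, which encodes the RNF152 substrate RagA, was at 74.5 ± 1.48 and 74.7 ± 7.31 CPM in the cell groups (SD, n = 4). The median log2FC of the list was 0.02 in the cells beside -0.00 over all genes.

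For *Frem2*, none of 3 tested genes of the Fraser complex list was called in the cells and none of 6 in the retina. *Fras1* was at 1.59 ± 0.563 CPM in eGFP and 2.24 ± 0.437 CPM in *nsHif1a* cells, and *Frem1* at 0.0438 and 0.629 ± 0.720 CPM (SD, n = 4), against 14.2 ± 1.68 and 34.5 ± 1.30 CPM in AAV::eGFP retina (SD, n = 5). For *Tenm4*, none of 7 genes of the teneurin list tested in the cells and none of 9 in the retina were called. *Tenm1* was at 0 CPM in both cell groups, *Tenm2* at 0.0300 and 0.115 CPM and *Tenm3* at 31.2 ± 1.45 and 34.96 ± 2.79 CPM (SD, n = 4).

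For *Ccn4*, the other CCN genes were not called in either system (0 of 3 and 0 of 2 tested). *Ccn1* was at 987 ± 66.9 CPM and 878 ± 109 CPM, and *Ccn2* at 614 ± 115 and 579 ± 151 CPM, in eGFP and *nsHif1a* cells (SD, n = 4). Of the WNT target list, 0 of 4 genes were called in the cells, where all 4 had values below 0 (median log2FC -0.26), and 0 of 7 in the retina. For *Gpr35*, 0 of 8 genes of its G proteins, arrestin and the kynurenine enzymes were called in the cells and 0 of 9 in the retina. In the 6 lists without a call (GABA-B, Fraser, teneurin, CCN, WNT and *Gpr35*), 10 of 26 genes tested in the cells had an unadjusted *p*-value under 0.05 in limma, 2 of them higher and 8 lower, beside 20.7% of all genes tested. In the retina it was 4 of 41, beside 21.7%. These 6 lists were grouped for having no call. Established HIF targets, for comparison, were called higher in 20 of 37 cases in the cells (median log2FC 0.61), beside 1.21% of all genes tested. In the retina 21 of 39 were called higher (median 0.51), beside 1.08%.

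Within the 8 cell libraries, the genes with the most similar profile (Pearson's *r* of log2 CPM) differed between members. These values describe 8 libraries that share group and replicate pairs, chosen as the highest among 15962 candidate genes. For *Frem2* they were *Gys1* (0.996), *Slc2a1* (0.995) and *Slc2a3* (0.995), and for *Tenm4* *Ero1a* (0.989), *Vldlr* (0.987) and *Slc2a1* (0.986). *Gpr35* was nearest to *Ak3l2-ps* (0.993), *Btc* (0.983) and *Hif1a* (0.976), and *Kctd16* to *Abhd18* (0.992), *Hif1a* (0.988) and *Ak3l2-ps* (0.98). *Rnf152* was nearest to *Nars1* (0.991), *Atp7b* (0.986) and *Rnf19a* (0.984). *Ccn4*, with its higher values in libraries 1 and 2, was nearest to *Oas3* (0.997), *AW011738* (0.996) and *Arl14ep* (0.991). Most of these genes were replaced when all 18 libraries were used. Only *Slc2a3* for *Frem2*, *Vldlr* for *Tenm4* and *Hif1a* for *Gpr35* stayed among the nearest 3, and none did for *Kctd16*, *Rnf152* and *Ccn4*.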

How the data were processed

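RNA from 8 libraries of 661W cells and 10 of retina was grouped by the sample labels. The authors made stranded libraries and aligned the reads to GRCm39 with Rsubread. The authors then used featureCounts on the antisense strand (gencode M36 basic annotation) and deposited whole-number counts, not normalized, in 1 table per experiment. Overlapping genes on opposite strands are therefore separate, and near-identical genes may lose reads to each other.

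Genes were filtered with filterByExpr (minimum count 10) and library sizes scaled by TMM in edgeR 4.0.16. Voom values with sample quality weights were fitted in limma 3.58.1 (R 4.3.3), with Benjamini-Hochberg adjustment over all genes tested. The call thresholds were an adjusted *p*-value under 0.05 and an absolute log2FC above 0.5. Cells and retina were fitted separately, and the baseline and the difference of effects over all 18 libraries. CPM and RPKM were computed from the counts, with exon lengths and coordinates from gencode M39 on GRCm39. Folds against groups at 0 use a floor of 3 counts over the group. The procedure was tested on simulated counts.

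The members and gene lists were chosen with earlier results of these data known. Named were the 6 members, partner genes called in either experiment or bound by a member's protein, the 3 genes nearest to each member in profile, *Hif1a*, markers, and HIF targets that differed between systems. The neighbouring genes were chosen after their values were seen.

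Deviations of same-numbered cell libraries correlated at 0.228 to 0.270 in all 4 pairs. For numbers 1 and 2, however, a library with another number correlated more highly. Whether the numbers pair the cell libraries is therefore not settled. The main fit held no replicate block, and the block was tried as an alternative. In the retina the values ran from -0.147 to 0.137 and the numbers were not taken to pair. Tried besides were DESeq2 1.42.0, the quasi-likelihood test of edgeR, voom without weights, RLE size factors, other filters and thresholds, the replicate block, replicate sets or *Xist* class as covariates, and leaving out each library. Subsets of replicates, the high-Xist libraries alone and the γ-crystallin covariate were added after the data were seen.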

Additional observations from a re-analysis of the deposited data

Results flagged for a closer look

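No single library stood apart from its group for any of the 6 genes in 24 gene-by-group checks of 4 or 5 libraries, which cannot detect a split into pairs such as that of the *nsHif1a* cells. Among the listed partner genes and HIF targets, 15 had an effect of *nsHif1a* that differed between retina and cells by the interaction term (limma, adjusted *p*-value under 0.05), given as the log2 difference of retina minus cells. It was above 0 for *Adm* (4.59), *Stc2* (1.97), *Egln3* (1.91), *Egln1* (0.89), *Lamtor5* (0.36), *Eno1* (0.35) and *Gapdh* (0.29). It was below 0 for *Car9* (-3.43), *Ak4* (-1.40), *Slc2a3* (-1.36), *Vldlr* (-1.31), *Pdk1* (-0.95), *Ndrg1* (-0.90), *Bnip3* (-0.90) and *Slc16a3* (-0.86). *Adm* and *Car9* were not tested in the cells, at 0 and 0.0155 CPM in eGFP and 0.0286 and 0.446 CPM in *nsHif1a* cells, and entered this fit only through the retina, so their values depend on how counts near 0 are handled. *Lamtor5*, a subunit of the Ragulator complex that anchors Rag GTPases at the lysosome, is the 1 gene here from the mTORC1 list, and no gene of the GABA-B, Fraser, teneurin, CCN, WNT or *Gpr35* lists was among the 15. *Lamtor5*, *Eno1* and *Gapdh* lay under the fold threshold. With that threshold, 8 of 39 HIF targets were called below 0 and 4 above, beside 172 of 20999 genes (0.819%) called below 0. The share of all genes passing on the adjusted *p*-value alone was not counted, so nothing is read from the number 15.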

How the results depend on the processing

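No member changed the sign of a called value. Among 19 alternatives that kept the fold threshold, *Gpr35* and *Rnf152* were called in the cells under all, *Tenm4* under all but the omission of eGFP replicate 1 or 2, and *Ccn4* under none. *Ccn4* was called lower in the retina under all 20 alternatives that kept the fold threshold, and its log2FC of -0.89 does not reach a threshold of 1. Values that were not called were less stable: the retinal log2FC ranged from -0.08 to 0.68 for *Gpr35* and from -0.35 to 0.15 for *Frem2*, and the causes were not tested. With the filter relaxed to every gene with a count, *Kctd16* and *Frem2* had a log2FC of 3.79 and 4.92 in the cells.

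Counts of called genes moved more. In the cells (203 in the main analysis) there were 360 with DESeq2, 75 at a log2FC threshold of 1, 592 with replicate sets as a covariate and 1984 in replicates 1 and 2 alone. Leaving out 1 library gave 84 to 1878 genes, with 84 and 89 without eGFP replicates 1 and 2 and 1878 and 1876 without *nsHif1a* replicates 3 and 4. With the replicate block there were 107, and no member's call changed. In the retina (375) there were 221 with the *Xist* class as a covariate, 140 in high-Xist libraries alone and 123 at a threshold of 1. Leaving out 1 library gave 219 to 528, with 219 and 243 without eGFP replicates 4 and 5. Retinal libraries shared only a number, and the block gave 200. For the difference of effects (260) there were 500 with DESeq2, 127 at a threshold of 1 and 170 with the block. Leaving out 1 library gave 140 to 1618, with 1618 and 1616 without *nsHif1a* cell replicates 3 and 4, 140 without eGFP retina replicate 4 and 172 without *nsHif1a* retina replicate 3. The baseline count (17064) ranged from 16899 to 17405 with 1 library left out. Apart from the alternatives' own construction (fewer libraries, a stricter threshold), the causes were not tested. Depth limits *Kctd16*, *Frem2* and *Gpr35* most, which had 0 to 6 counts in control cells.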

Other observations

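*Ccn4* has a close neighbour on chromosome 15, *Ndrg1*, an established HIF target annotated 6.12 kb from it. *Ndrg1* had 75.2 ± 4.33 CPM in eGFP cells and 179 ± 13.8 CPM in *nsHif1a* cells (SD, n = 4), a log2FC of 1.24 (SE 0.06, limma adjusted *p* = 3.38e-05), where *Ccn4* had 0.24. In the retina *Ndrg1* was higher with AAV::*nsHif1a* by a log2FC of 0.37 (adjusted *p* = 0.00634, under the fold threshold), where *Ccn4* had -0.89. The nearest other genes tested in the cells on either side of *Gpr35*, *Rnf152*, *Frem2*, *Tenm4* and *Ccn4* lay 6.26 to 3890 kb away, and none of them was called.

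A second entry with the symbol *Kctd16* (ENSMUSG00000118202), annotated as a long noncoding RNA, was at 16.9 ± 0.844 CPM in AAV::eGFP and 16.2 ± 1.01 CPM in AAV::*nsHif1a* retina (SD, n = 5). It had 0 counts in all eGFP cell libraries and 0 to 3 counts in *nsHif1a* cells.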
